A study of Mus musculus with 10 samples.

Results

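The actin and membrane-shaping genes Fhod3, Bin1, Sorbs2, Nckap1 and Rhob are 5 of the 19937 genes measured in J558 cells carrying different Pax5 vectors. They were chosen by name from genes with large differences between the groups, so the differences below describe how they were chosen and are given without tests. Each gene is read by 1 probe set with a single gene symbol in the platform annotation. J558 cells derive from a mouse plasma-cell tumour, and all of them carried a retroviral vector with puromycin resistance and green fluorescent protein (MSCV-PIG). The vector held no insert in 3 arrays, wild-type Pax5 (Pax5 WT) in 3 and Pax5 G183S in 4, and all cells had been kept 5 to 7 days in puromycin and sorted for green fluorescence and IgM. Pax5 is the transcription factor that sets B-cell identity and is silent in plasma cells, and the G183S protein carries serine in place of glycine in the octapeptide, the motif that binds Groucho co-repressors. The labels call the replicates independent; they do not say whether the cultures came from separate infections, so the spread between arrays may be partly technical. In bulk RNA, fewer cells expressing a gene and less RNA per cell cannot be told apart.

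Cells shape their surface by growing actin filaments and by bending membranes. Formins such as Fhod3 build straight filaments, while the WAVE complex, of which Nckap1 is a scaffold subunit, passes signals from the GTPase Rac to the Arp2/3 complex, which builds branched networks. Sorbs2 (ArgBP2) is an adaptor that ties Abl kinases and adhesion proteins to actin, Bin1 (amphiphysin 2) is a BAR-domain protein that curves membranes, and Rhob is a small GTPase of endosomes whose transcript is short-lived and stress-responsive. Fhod3, Bin1 and Sorbs2 are best known from muscle. In B cells, actin remodelling accompanies antigen-receptor signalling and migration, and blood cells use the Nckap1 paralog Nckap1l (Hem1) in their WAVE complex.

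The RefSeq promoter table, on GRCm38.p6, gives start-site windows for Rhob and for 3 alternative starts of Sorbs2. They are shown because the factor introduced binds DNA, and these are the 2 members the table holds. Each window runs from 250 bases before to 50 after the annotated start, 5′ to 3′ on the strand of the gene, and capitals mark CCAAT or its reverse complement ATTGG, the CCAAT box bound by the factor NF-Y.
Rhob, chr12:8499960-8500259, minus strand: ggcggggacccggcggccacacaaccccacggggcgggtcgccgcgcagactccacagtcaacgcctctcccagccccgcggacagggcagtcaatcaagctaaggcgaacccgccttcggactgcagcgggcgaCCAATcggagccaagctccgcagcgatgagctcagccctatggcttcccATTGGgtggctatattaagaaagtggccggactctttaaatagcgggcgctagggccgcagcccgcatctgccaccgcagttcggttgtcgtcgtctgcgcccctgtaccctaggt
Sorbs2 start 1, chr8:45507538-45507837, plus strand: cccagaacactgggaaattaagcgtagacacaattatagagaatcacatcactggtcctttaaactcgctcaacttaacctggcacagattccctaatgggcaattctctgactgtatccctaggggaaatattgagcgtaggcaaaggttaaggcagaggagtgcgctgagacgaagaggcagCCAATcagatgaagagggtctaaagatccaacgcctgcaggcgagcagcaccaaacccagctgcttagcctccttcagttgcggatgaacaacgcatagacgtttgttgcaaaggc
Sorbs2 start 2, chr8:45627501-45627800, plus strand: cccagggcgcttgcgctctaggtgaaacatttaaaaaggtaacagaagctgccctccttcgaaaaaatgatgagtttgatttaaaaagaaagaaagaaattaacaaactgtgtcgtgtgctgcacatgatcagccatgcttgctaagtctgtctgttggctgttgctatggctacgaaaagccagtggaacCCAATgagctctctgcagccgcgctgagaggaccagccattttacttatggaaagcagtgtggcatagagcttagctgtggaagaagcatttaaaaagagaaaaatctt
Sorbs2 start 3, chr8:45661743-45662042, plus strand: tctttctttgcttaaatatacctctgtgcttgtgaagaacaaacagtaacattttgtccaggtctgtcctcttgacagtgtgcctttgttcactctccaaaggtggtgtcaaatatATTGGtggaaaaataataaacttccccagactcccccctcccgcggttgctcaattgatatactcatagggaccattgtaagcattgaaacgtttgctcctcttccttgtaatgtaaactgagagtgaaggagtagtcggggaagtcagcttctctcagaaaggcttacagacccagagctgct
The Rhob window held 2 CCAAT boxes, beginning 115 and 66 bases before the start in the printed direction, and each Sorbs2 window held 1. Of 32851 promoter windows of this length, 37.4% held at least 1 on either strand. GCGTGAC, a core of the Pax5 recognition sequence, was searched on both strands with its reverse complement GTCACGC. It was in 0 of the 4 windows and in 2.09% of all windows. TATAAA or TTTATA was in 0 of the 4 and in 13.6% of all. These letters are descriptions of the windows and say nothing of where Pax5 binds. The Sorbs2 probe set gives 1 value per array, so the data do not tell its starts apart.

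The log2 level of Pax5 itself was 7.10, 6.84 and 7.01 with empty vector, 10.67, 10.09 and 10.05 with wild type, and 10.22, 10.36, 9.38 and 9.96 with G183S. Arrays correlated across genes at 0.985 to 0.998 within groups and 0.978 to 0.995 between groups. G183S replicate 1 stood apart from its group: it scored 24.8 on the first principal component, in the range of the wild-type arrays (2.1 to 39.6), while the other G183S arrays scored between -21.6 and -8.8. Results that rest on it are therefore also given without it. All 12 plasma-cell markers measured had group means above the median of all values (6.89 log2 units) in every group, and their mean level per array ran from 11.63 to 11.78 with empty vector, 11.39 to 11.80 with wild type and 11.00 to 11.86 with G183S. By limma 0 of the 12 passed an adjusted p of 0.05, and 2, 4 and 3 had an unadjusted p under 0.05 for wild type and G183S against empty vector and between the proteins. Over all genes 1.88%, 0.311% and 0% passed, and 15.9%, 11.3% and 9.48% had an unadjusted p under 0.05 by limma. With wild type these markers went both ways. Slamf7 was higher (log2 difference 0.40, limma adjusted p = 0.178) and Derl3 lower (-0.43, adjusted p = 0.240), without overlap with empty vector. In all, 2 markers lay higher and 3 lower without overlap with wild type, and 0 and 2 with G183S. Over all genes 24% and 11.6% did not overlap. Sdc1 differed by -0.64 with wild type (limma adjusted p = 0.339) and -1.14 with G183S (adjusted p = 0.119), every array with a Pax5 vector lying below empty vector. Tnfrsf17 differed by -2.08 with G183S (adjusted p = 0.119), all 4 arrays lying below empty vector. The part of these markers in the results was not tested. Of 13 muscle markers 0 passed limma's adjusted p of 0.05 in any comparison, with a mean level of 6.61 to 6.71, 6.66 to 6.83 and 6.60 to 6.72 in the same order; 5, 6 and 5 of the 13 had means above 6.89. Mb (log2 difference 0.30, limma adjusted p = 0.102) and Tnnt2 (0.27, adjusted p = 0.116) lay above empty vector in every wild-type array without passing; their part in the results was not tested. Stromal (11), myeloid (10) and endothelial (8) markers also had 0 past it. Of these and the muscle markers together, 42 genes, 6, 0 and 6 had an unadjusted p under 0.05 by limma in the 3 comparisons (wild type and G183S against empty vector, then between the proteins). Some differences with wild type were large without passing. Endothelial Cdh5 differed by 1.34 (limma adjusted p = 0.0913), every wild-type array lying above empty vector. Myeloid Mpo (-0.95, adjusted p = 0.258) and Adgre1 (-0.95, adjusted p = 0.310) lay below empty vector in every wild-type array. Among 9 T-cell markers 1, the receptor chain gene Cd3g, was lower with wild type (log2 difference -1.09, limma adjusted p = 0.0172) and with G183S (-1.15, adjusted p = 0.0171). The mean level of the 9 ran from 7.04 to 7.25, 6.62 to 6.95 and 6.72 to 6.99 log2 units with empty vector, wild type and G183S. Their median log2 difference was 0.03 with wild type and -0.05 with G183S, beside 0.01 and -0.003 over all genes. The highest differences among the 9 were 0.11 and 0.33. Cd4 read 7.09, 9.29 and 7.60 with empty vector, and every array with a Pax5 vector lay below these. It differed by -1.39 with wild type (limma adjusted p = 0.150) and -1.41 with G183S (adjusted p = 0.181). The part of other cells in the results was not tested.

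**Figure D1:**
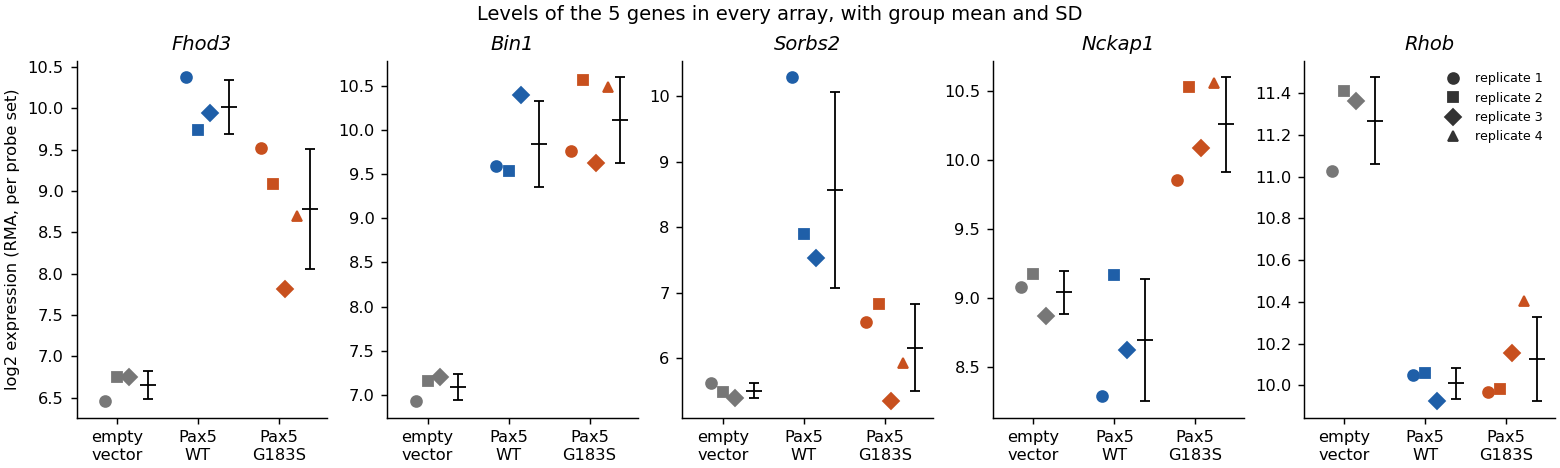
Log2 expression of the 5 genes in each array (points; shape gives the replicate number, colour the group), with the group mean and SD beside them (3, 3 and 4 arrays; the vertical axes differ and do not start at 0). Fhod3 and Sorbs2 are highest with wild type, Bin1 is high with both proteins, Nckap1 is high with G183S alone, and Rhob is lower with both.

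The 5 genes showed different patterns. Fhod3 and Sorbs2 were higher with wild-type Pax5 and less so with G183S, Bin1 was higher and Rhob lower with both proteins, and Nckap1 was higher with G183S and not with wild type. limma placed 4 of the 5 among its calls for wild type against empty vector (1.88% of all genes), 3 for G183S against empty vector (0.311%) and 0 between the Pax5 proteins (0% of all genes, with 1891, or 9.48%, at an unadjusted p under 0.05). In this fit to all arrays Nckap1 was called in no comparison, and Sorbs2 only for wild type against empty vector. The groups did not overlap for 4, 4 and 3 of the 5 in the same comparisons, against 24%, 11.6% and 6.5% of all genes. These contrasts were used to choose the members, so nothing is read from the counts. With an array left out in turn the calls by limma ran from 0 (without empty-vector replicate 3) to 4 for wild type, with 0.0301% to 5.18% of all genes called, and from 1 to 4 for G183S against empty vector, with 0.0401% to 1.48%; between the proteins they were 3 without G183S replicate 1, where 5.58% of all genes passed, and 0 in the other 9 fits. Both differences from empty vector use the same 3 empty-vector arrays.

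Fhod3, the formin, read 6.46, 6.76 and 6.75 log2 units with empty vector, 10.37, 9.74 and 9.94 with wild type, and 9.52, 9.08, 7.82 and 8.70 with G183S. The groups did not overlap: every wild-type array lay above every G183S array, and these lay above every empty-vector array. The means were 6.65 ± 0.17, 10.02 ± 0.32 (SD, n = 3 each) and 8.78 ± 0.73 (n = 4), log2 differences of 3.36 ± 0.36 and 2.13 ± 0.33 SE from empty vector, or 10.3-fold and 4.36-fold. G183S thus gave 63.2% of the wild-type difference on the log2 scale, with a 95% Fieller interval, which allows for the shared controls, of 44.4% to 83.5%. Without G183S replicate 1, the highest of its group, the share was 55.8%. The difference between G183S and wild type was -1.24 ± 0.33 SE (95% interval -1.98 to -0.49). G183S replicate 3, at 7.82, was the lowest array with a Pax5 vector and also had the lowest Pax5 value of the 7; whether the vector level bears on it was not tested.

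Nckap1, the WAVE scaffold, was higher with G183S than with wild type, the reverse of Fhod3. It read 9.08, 9.17 and 8.87 log2 units with empty vector, 8.29, 9.17 and 8.63 with wild type, and 9.86, 10.53, 10.09 and 10.55 with G183S. All 4 G183S arrays lay above the other 6, while the wild-type and empty-vector arrays overlapped. The means were 9.04 ± 0.16, 8.70 ± 0.44 (SD, n = 3 each) and 10.26 ± 0.34 (n = 4). The log2 difference from empty vector was -0.34 ± 0.24 SE with wild type (95% interval -0.87 to 0.18) and 1.22 ± 0.22 SE with G183S, a 2.32-fold higher level. G183S exceeded wild type by 1.56 ± 0.22 SE (95% interval 1.07 to 2.05), or 2.95-fold, rank 10 among all genes by size of that difference. Without G183S replicate 1, the lowest of its group, the difference was 1.69. A share of the wild-type response is not given, because the wild-type difference was only 1.46 times its standard error.

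Sorbs2, the adaptor, varied most within a group. It read 5.62, 5.48 and 5.40 log2 units with empty vector, 10.29, 7.89 and 7.53 with wild type, and 6.56, 6.82, 5.34 and 5.93 with G183S. Every wild-type array lay above every other array, whereas the G183S arrays overlapped empty vector, replicate 3 lying below all of them. Wild-type replicate 1, at 10.29 against 7.89 in the next array, also had the highest Fhod3 and Pax5 values; whether the vector level bears on it was not tested. The means were 5.50 ± 0.11, 8.57 ± 1.50 (SD, n = 3 each) and 6.16 ± 0.66 (n = 4). The log2 difference from empty vector was 3.07 ± 0.63 SE with wild type, 8.40-fold, and 0.66 ± 0.59 SE with G183S (95% interval -0.65 to 1.98). Without wild-type replicate 1 the wild-type difference was 2.21. The G183S share was 21.6% (95% Fieller interval -30.0% to 58.0%), 17.3% without G183S replicate 1 and 30.0% without wild-type replicate 1. The interval assumes the same spread in all groups, while the SDs were 0.11, 1.50 and 0.66. Between the Pax5 proteins Sorbs2 had the largest log2 difference of all 19937 genes, -2.41 ± 0.59 SE (95% interval -3.72 to -1.09), or -1.55 without wild-type replicate 1. The Sorbs2 means with empty vector and G183S were low, below the median of all values (6.89) and at percentiles 20.6 and 31.9 of all genes. Background intensity was not analysed here, and whether a floor bears on its differences or share was not tested.

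Bin1, the membrane-curving protein, read 6.93, 7.15 and 7.20 log2 units with empty vector, 9.60, 9.53 and 10.40 with wild type, and 9.76, 10.57, 9.62 and 10.49 with G183S. The arrays of both Pax5 proteins overlapped and all lay above empty vector. The means were 7.09 ± 0.15, 9.84 ± 0.48 (SD, n = 3 each) and 10.11 ± 0.49 (n = 4), a 6.73-fold higher level with wild type (log2 difference 2.75 ± 0.29 SE) and 8.10-fold with G183S (3.02 ± 0.27 SE). The G183S share was 109.8% of the wild-type difference (95% Fieller interval 88.9% to 138%), and 114.0% without G183S replicate 1. Between the proteins the log2 difference was 0.27 ± 0.27 SE; its 95% interval, -0.34 to 0.88, leaves room for a G183S level up to 0.88 log2 units higher.

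Rhob, the endosomal GTPase, was the member with lower values. It read 11.03, 11.41 and 11.36 log2 units with empty vector, 10.05, 10.06 and 9.92 with wild type, and 9.97, 9.99, 10.15 and 10.40 with G183S. Every array with a Pax5 vector lay below every empty-vector array, and the wild-type and G183S arrays overlapped. The means were 11.27 ± 0.21, 10.01 ± 0.07 (SD, n = 3 each) and 10.13 ± 0.20 (n = 4). The log2 difference was -1.26 ± 0.13 SE with wild type, a 2.39-fold lower level, and -1.14 ± 0.12 SE with G183S, 2.20-fold lower. The G183S share was 90.6% (95% Fieller interval 71.4% to 115%), and 86.5% without G183S replicate 1. The proteins differed by 0.12 ± 0.12 SE log2 units (95% interval -0.16 to 0.39).

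**Figure D2:**
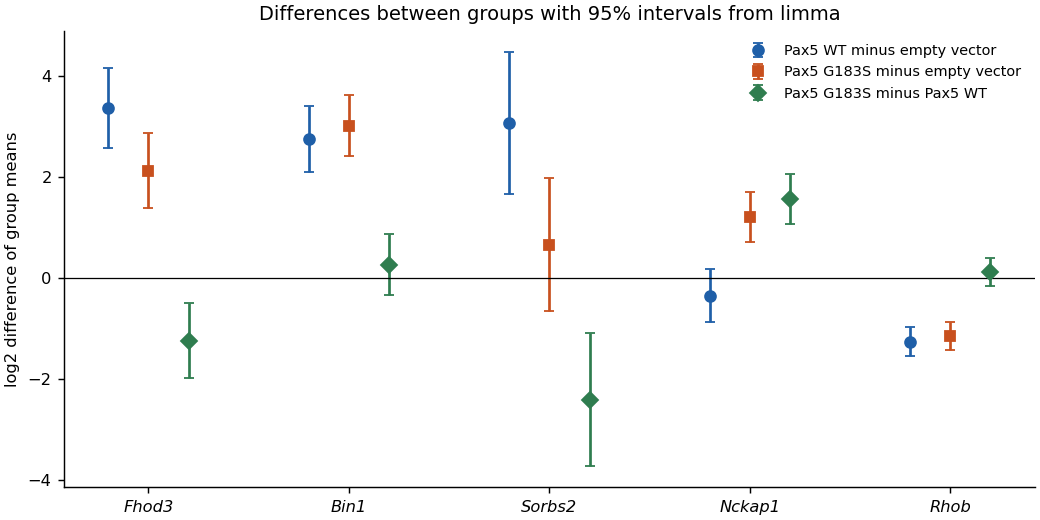
Log2 differences of group means for the 5 genes (points) with 95% intervals from limma (bars), which are not adjusted for how the genes were chosen. The interval of G183S minus wild type includes 0 for Bin1 and Rhob and lies below 0 for Fhod3 and Sorbs2 and above 0 for Nckap1.

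The close relatives of these genes did not pass the test, and few of all genes did. Of 16 paralogs and WAVE subunits measured, limma's adjusted p of 0.05 was passed by 0 in each comparison. Over all genes 1.88%, 0.311% and 0% passed for wild type and G183S against empty vector and between the proteins. An unadjusted p under 0.05 by limma was held by 3, 2 and 2 of the 16, beside 15.9%, 11.3% and 9.48% of all genes. The groups did not overlap for 6, 4 and 0 of the 16, beside 24%, 11.6% and 6.5% of all genes. Nothing is read from these counts. The log2 differences of the 16 ran from -0.55 (Bin2) to 0.57 (Abi3) with wild type and from -0.30 (Cyfip2) to 0.46 (Abi3) with G183S. The formin paralog Fhod1 differed by -0.12 with wild type (limma adjusted p = 0.689), Sorbs3, the vinexin gene, by 0.16 (0.384) the BAR gene Amph by 0.04 (0.834) and its relative Bin3 by -0.11 (0.479, all limma adjusted p). Bin2, the BAR gene of blood cells, had log2 means of 11.56 with empty vector, 11.01 with wild type and 11.51 with G183S, a wild-type difference of -0.55 ± 0.18 SE (limma adjusted p = 0.171). The blood-cell scaffold Nckap1l, the counterpart of Nckap1, had means of 10.99, 11.01 and 10.80 and differed by -0.19 with G183S (adjusted p = 0.660). The actin-nucleating WAVE proteins themselves also had small G183S differences, 0.09 for Wasf1, -0.05 for Wasf2 and 0.08 for Wasf3 (limma adjusted p of 0.767, 0.877 and 0.803). Of the remaining subunits, Cyfip2, which binds Rac, differed by -0.30 with G183S (0.255), Abi1 by 0.07 (0.906), Abi2 by 0.02 (0.983) and Brk1 by 0.16 (0.698, all limma adjusted p). Abi3 read 8.01 in G183S replicate 1 against 7.00 to 7.08 in the other G183S arrays. Without that array Abi3 passed for wild type against empty vector (0.57, limma adjusted p = 0.0389), as did 5.18% of all genes. Brk1 (0.34, adjusted p = 0.0467) and Bin2 (0.63, adjusted p = 0.0381) then passed for G183S against wild type, as did 5.58% of all genes. Rhoa, the close paralog of Rhob, differed by -0.17 with wild type (limma adjusted p = 0.386) and -0.02 with G183S (0.971), and Rhoc by 0.32 (0.812) and 0.11 (0.976). Whether a member differed more than its paralog was not tested. Cyfip1 was not analysed here.

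**Figure D3:**
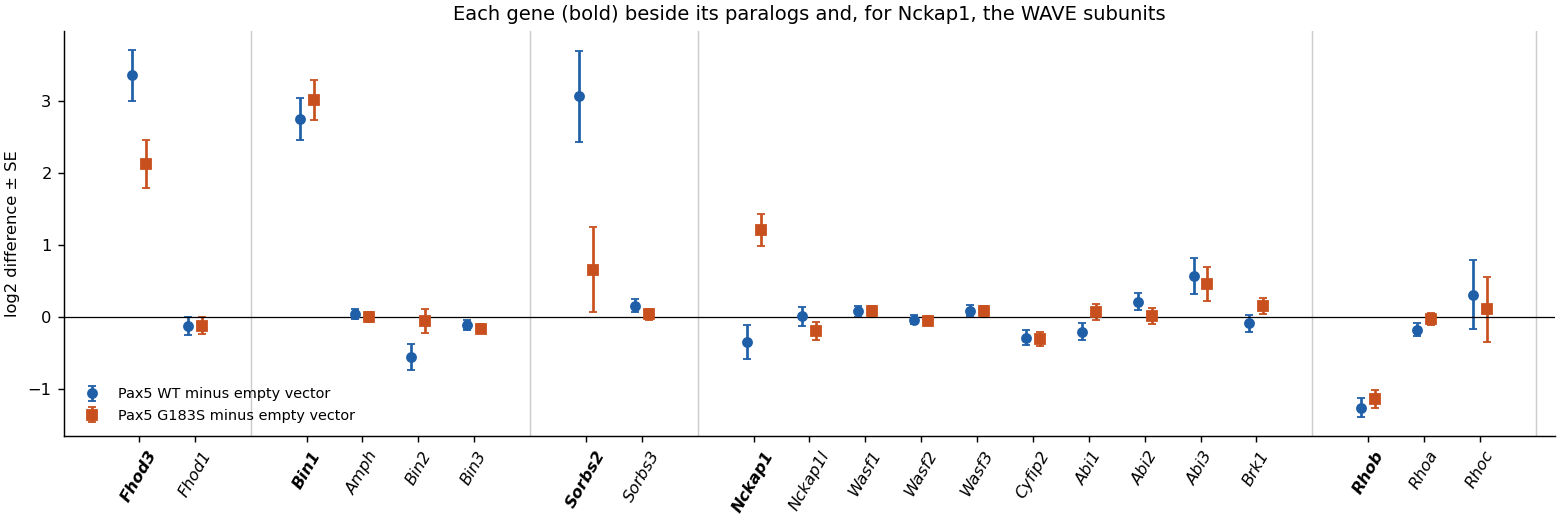
Log2 difference from empty vector with its standard error for each member (bold) and its paralogs or complex partners, with wild-type Pax5 (circles) and G183S (squares). Relatives lie between -0.55 and 0.57, inside the members' range of -1.26 to 3.36.

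Across the wider actin and membrane machinery few genes passed. Of 177 genes on 8 lists 6 did for wild type against empty vector (3.39%, against 1.88% of all genes), 3 higher and 3 lower. For G183S against empty vector and between the proteins 0 did, against 0.311% and 0% of all genes. An unadjusted p under 0.05 by limma was held by 36, 27 and 26 of the 177 in the 3 comparisons, beside 15.9%, 11.3% and 9.48% of all genes. With each array centred on its median, 0 higher and 3 lower passed for wild type. The median log2 difference over the 177 was -0.02 with wild type and -0.02 with G183S, beside 0.01 and -0.003 over all genes. Among 35 BAR-domain and dynamin genes, 3 rose and 1 fell with wild type, and 31 did not pass. Mtss1, an inverse-BAR protein that binds membrane and actin, rose from 9.24, 9.55 and 9.52 to 10.57, 10.18 and 10.30 log2 units, a log2 difference of 0.91 ± 0.19 SE (limma adjusted p = 0.0454). With G183S it read 10.34, 10.10, 9.53 and 9.90, overlapping both groups (0.53, adjusted p = 0.255). Srgap2, another inverse-type BAR protein that also acts on Rac, rose by 0.38 ± 0.08 SE (adjusted p = 0.0436), and the endophilin gene Sh3gl3 by 0.31 ± 0.06 SE (adjusted p = 0.0439). Baiap2l1, an inverse-BAR protein of actin-rich protrusions, fell from 9.73, 9.90 and 9.84 to 8.76, 8.44 and 9.07 (log2 difference -1.07 ± 0.16 SE, adjusted p = 0.0172); the G183S arrays, at 8.93, 9.32, 9.40 and 9.29, all lay below empty vector without passing (-0.59, adjusted p = 0.130).

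Among 30 regulators and effectors of the Rhoa and Rhob family of GTPases, 1 passed with wild type. Arhgef3, an exchange factor that activates Rhoa and Rhob, fell from 9.21, 8.89 and 9.07 to 6.81, 7.64 and 8.25 log2 units (-1.49 ± 0.31 SE, limma adjusted p = 0.0454), and read 8.03, 8.76, 8.36 and 8.60 with G183S (-0.62, adjusted p = 0.474). Of 19 Arp2/3 and WASP genes, Was, the blood-cell activator of Arp2/3, fell by 0.49 ± 0.11 SE (adjusted p = 0.0495), and 18 did not pass. The lists of 17 WAVE and Rac genes, 12 formins, 22 sorbin and adhesion genes, 16 small GTPases of the Rhoa and Rhob family and 26 actin and actin-binding genes had 0 past the threshold in any comparison. With wild type 5, 1, 3, 5 and 2 of them had an unadjusted p under 0.05 by limma, beside 15.9% of all genes. Rac2 (-0.62, adjusted p = 0.116), the formin gene Diaph3 (0.77, adjusted p = 0.258), paxillin gene Pxn (-0.44, adjusted p = 0.0693), Rhobtb1 (0.38, adjusted p = 0.0864) and the actin-monomer binder Twf2 (-0.47, adjusted p = 0.0608) had the smallest adjusted p of their lists with wild type. For G183S against empty vector the smallest were those of Twf2 (-0.50, adjusted p = 0.0762), Arhgef1 (-0.27, 0.0884), the kinase Ptk2b (-0.74, 0.103) and Pacsin2 (-0.30, adjusted p = 0.106).

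These list counts moved with single arrays, as did the calls over all genes. For wild type against empty vector the 6 became 1, 0 and 0 when empty-vector replicate 1, 2 or 3 was left out, where 0.612%, 0.105% and 0.0301% of all genes passed. Leaving out wild-type replicate 1, 2 or 3 gave 0, 1 and 3, with 0.451%, 0.933% and 1.35% of all genes. Leaving out G183S replicate 1, 2, 3 or 4, which enter only through the shared estimate of spread, gave 15, 1, 6 and 1, with 5.18%, 1.06%, 2.22% and 1.07% of all genes. Baiap2l1 passed in 7 of the 10 fits with an array left out (adjusted p 0.00597 to 0.0993), and each of Was, Sh3gl3, Srgap2, Mtss1 and Arhgef3 in 2. Without G183S replicate 1, where 5.18%, 1.48% and 5.58% of all genes passed in the 3 comparisons, 2 list genes passed for G183S against empty vector, Ptk2b (-0.88, adjusted p = 0.0224) and the actin-bundling gene Vil1 (0.76, adjusted p = 0.0468). For G183S against wild type 11 then passed, 9 higher and 2 lower, and the largest differences were those of Vil1 (1.15, limma adjusted p = 0.0111), Coro1c, which binds actin (-0.78, adjusted p = 0.0499), and the GTPase-activating protein gene Arhgap35 (0.65, adjusted p = 0.0198), named here after their values were seen.

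**Figure D4:**
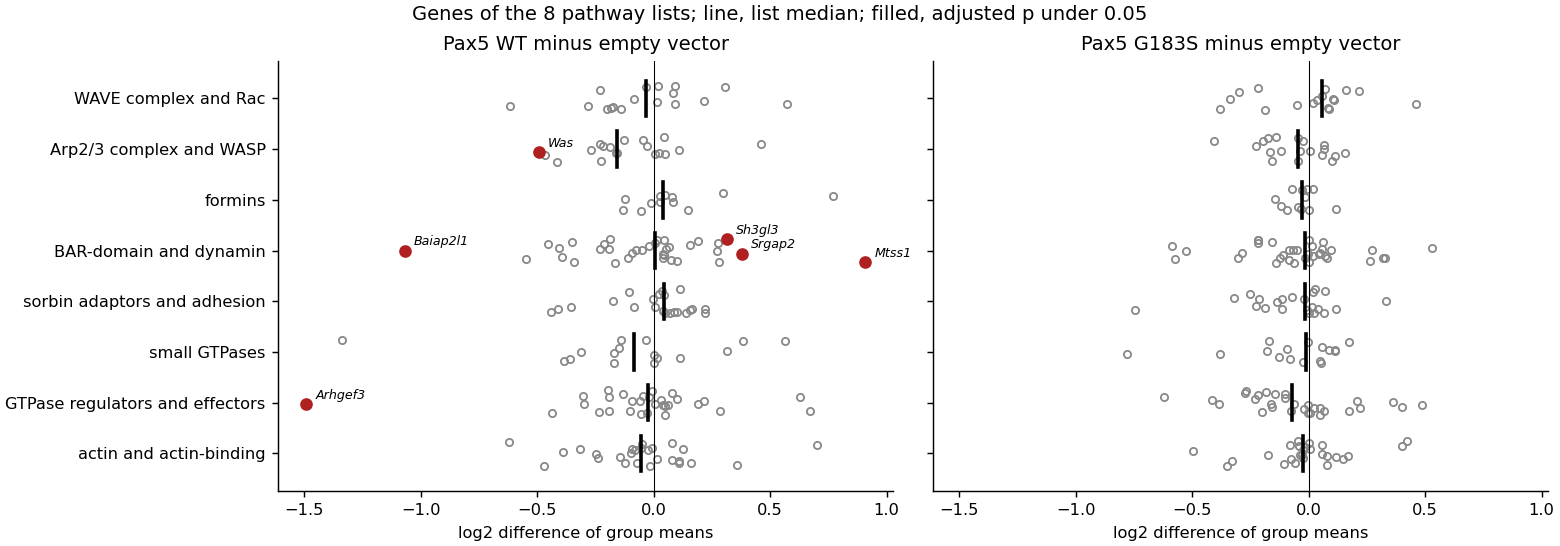
Log2 differences from empty vector for the genes of 8 actin and membrane lists (circles; vertical position within a row is only for display), with wild type on the left and G183S on the right. Filled points passed limma's adjusted p of 0.05 (6 genes on the left, 0 on the right), and short lines are list medians.

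The genes whose profiles lay closest to each member were found by the root-mean-square difference of log2 values over the 10 arrays, after centring each gene on its own mean. Profiles that share a group difference are close by this measure whatever the genes do. For Fhod3, whose own root-mean-square about its mean was 1.39, they were the sialyltransferase gene St3gal6 (0.37 log2 units), the transcription factor gene Irf8 (0.46) and the aryl hydrocarbon receptor gene Ahr (0.48). For Bin1 (1.38) they were the MHC class II gene H2-Ob (0.44), Ms4a1, which encodes CD20 (0.47), and the inhibitory Fc receptor gene Fcgr2b (0.56). St3gal6 differed from empty vector by 3.68 with wild type and 2.52 with G183S, Irf8 by 2.29 and 1.85, and H2-Ob by 2.27 and 2.35. The likeness of these differences to those of the member follows from how the genes were picked. Sorbs2 (1.48) was closest to Pinlyp (0.36), Rassf6 (0.62) and Mgarp (0.69). Pinlyp had the same high wild-type replicate 1, at 10.87 against 9.03 and 8.27 log2 units, and Rassf6 differed by 1.91 with wild type and 0.05 with G183S. Nckap1 (0.75) was closest to the NOD-like receptor gene Nlrc3 (0.36), Zfp229 (0.43) and the cytokine subunit gene Ebi3 (0.45), whose G183S differences of 0.66, 0.62 and 0.91 were smaller than that of Nckap1. Rhob (0.57) was closest to the peroxidase gene Lpo (0.13), the calcium channel gene Cacna1h (0.18) and Sh2d4b (0.18). Their differences with wild type and G183S were -1.08 and -1.12 for Lpo, -1.33 and -1.03 for Cacna1h, and -1.13 and -0.89 for Sh2d4b.

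**Figure D5:**
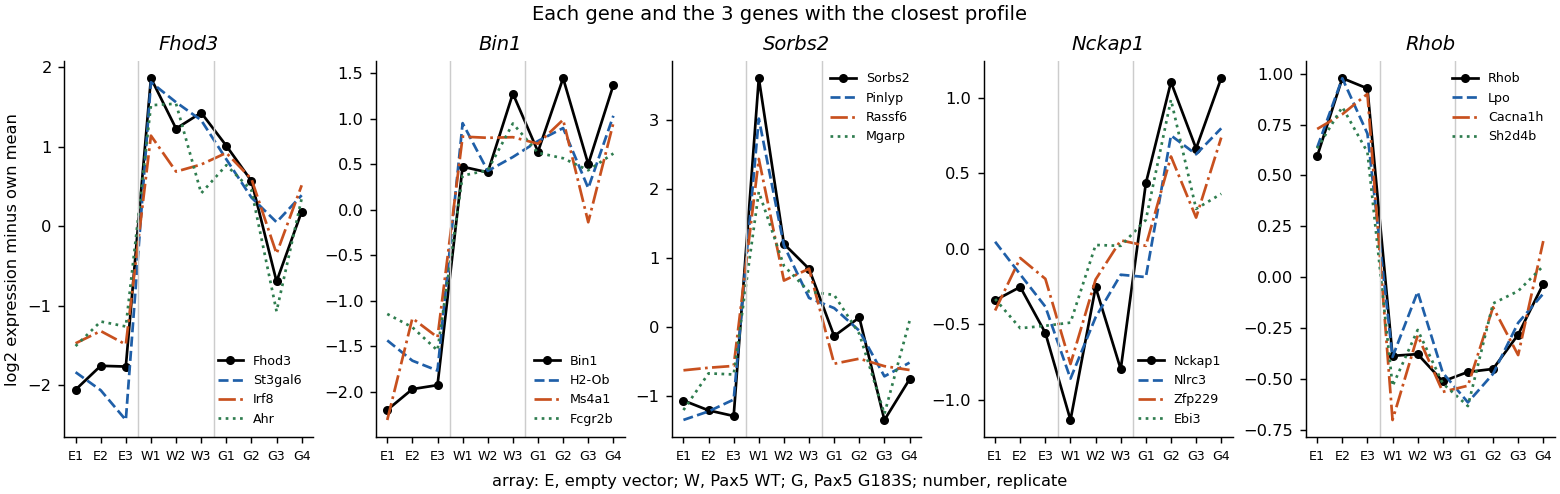
Log2 expression minus each gene's own mean in the 10 arrays (E, empty vector; W, Pax5 WT; G, Pax5 G183S; the number is the replicate) for each member (black) and its 3 closest genes. Lpo follows Rhob within 0.13 log2 units (root mean square), and Pinlyp shares the peak of Sorbs2 in wild-type replicate 1.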

How the data were processed

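Total RNA extracted with Trizol (100 ng per sample) was hybridised to Affymetrix whole-transcript arrays, per the labels' protocols. The authors deposited log2 values, 1 per probe set and array. The submitters' processing notes list RMA and Partek with no version and no role; any filter is not stated. RMA forces arrays toward one distribution and can hide a change common to most genes. Of 34760 probe sets, 21640 had 1 gene symbol, and taking the highest-mean probe set per gene gave 19937 genes with no filter on level. Symbols were checked against RefSeq (GRCm38.p6; 21553 probe sets matched, 0 symbols changed). limma 3.58.1 in R 4.3.3 was fitted to all 10 arrays with a coefficient per group, Benjamini-Hochberg adjustment over all genes and a two-sided threshold of 0.05, and the fit was tested on simulated data. Members and gene lists were chosen with earlier results of these data known; 177 of 192 pathway-list genes were measured. Named genes are the members, Pax5, set paralogs and WAVE subunits, list genes past the threshold, the 2 smallest p per list in each comparison with empty vector, and the 3 closest profiles per member, leaving out predicted, receptor-family, small-RNA and antigen-receptor symbols. Figures used Python 3.11.15 and matplotlib 3.10.9. Alternatives were the mean of a gene's probe sets, a filter on dim genes, array centring, quantile normalization, array weights, another variance prior, fits of 2 groups, a replicate block and leaving out each array.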

Additional observations from a re-analysis of the deposited data

Results flagged for a closer look

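Of 85 values of named genes checked in the 4 G183S arrays, 4 (4.71%) had 1 array far from the other 3 by Dixon's criterion; chance flags about 1 group in 20. Abi3 read 8.007 in G183S replicate 1 against 7.003 to 7.080 in the others. Rhoa read 13.02 in replicate 1 against 13.27 to 13.29, and Brk1 12.08 in replicate 1 against 12.44 to 12.50. Sorbs3 read 7.135 in replicate 3 against 7.065 to 7.076. None of the 5 members was among them.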

How the results depend on the processing

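Of 120 member differences recomputed under the settings that keep all arrays of the groups compared, 118 moved by less than 1 SD between replicates, as did 150 of 150 with an array left out. Many of these could not move. Each member has 1 probe set, so averaging probe sets leaves its differences unchanged. The dim filter, the other variance prior and fits of the compared groups alone also leave a difference of group means unchanged. So does leaving out an array outside the groups compared. The counts are therefore no measure of robustness. With array weights, which give G183S replicate 1 a weight of 0.335, the Nckap1 difference with wild type was 0.0027, the Bin1 difference between the proteins 0.69 and the Bin1 share 127%; genes called were 2576 for wild type and 1449 for G183S against empty vector and 2752 between the proteins, and pathway-list genes called 31, 16 and 35. The pathway-list count for wild type was 3 with arrays centred and 3 with the trended robust prior; fits of the 2 groups alone called 587 genes for wild type. With arrays centred the calls for wild type split into 100 higher and 218 lower, against 176 and 198, and the pathway-list calls into 0 and 3, against 3 and 3. With an array left out, calls ranged from 6 to 1033 for wild type, 8 to 295 for G183S and 0 to 1113 between the proteins, and pathway-list calls from 0 to 15, 0 to 2 and 0 to 11. Deviations of same-numbered arrays from their group means correlated at -0.16 to 0.11 in the comparisons with empty vector. Between G183S and wild type they correlated at 0.51, -0.16 and 0.46 for replicates 1, 2 and 3. In the 3 comparisons 0, 2 and 4 of 6 samples correlated best with their own number. The main fit used no pairing, and whether the numbers mark an effect shared by the Pax5 groups was not tested. The replicate block, in which G183S replicate 4 carries no information, called 228, 10 and 2 genes, and 1 pathway-list gene for wild type. The cause of these changes was not tested. The number of arrays limits every value.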
